A study of Homo sapiens with 4 samples.

Results

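The integrated stress response was followed through 10 genes: the transcription factors ATF4, ATF3 and DDIT3, the feedback genes PPP1R15A and TRIB3, and the stress and amino acid genes SESN2, CHAC1, ASNS, SLC3A2 and SLC7A11. They were chosen by name, as ATF4 and known targets of its pathway, with earlier results of these data known. The platform annotation gave them 11 probes of the 24460 gene probes on the array. They are 10 of 18637 genes measured. RNA came from HEK293, a line grown from human embryonic kidney, carrying a transgene for LGP2, a cytoplasmic RNA helicase related to RIG-I, or for LGP2-4KR, whose name the labels leave unexplained. Each line was measured at 0 h without stimulation and at 12 h after lipofection of short poly I:C, an artificial double-stranded RNA, at 100 ng/ml. This gave 4 groups of 1 single-colour array each, so no group has a replicate. Mock-transfected cells were not analysed here, and the poly I:C, the transfection and the 12 h in culture cannot be told apart. The labels do not say whether a line is 1 clone, which promoter drives the transgene, or whether the cells keep their own LGP2 gene.

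In the integrated stress response, kinases that sense double-stranded RNA, unfolded protein, lack of amino acids or lack of heme phosphorylate the translation factor eIF2. Most protein synthesis then falls, while the mRNA of ATF4 is translated more because of short reading frames ahead of its coding sequence, so that the level of the mRNA need not follow that of the protein. ATF4 binds C/EBP-ATF response elements and activates genes of amino acid uptake and synthesis, redox balance and further transcription factors. The kinase for double-stranded RNA, PKR, is encoded by EIF2AK2 and is itself induced by interferon.

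The regions upstream of the gene starts were examined for elements that factors of this response bind, since most of these genes moved together. RefSeq promoter windows on GRCh38.p14 matched 9 of the 10 genes, all but SLC7A11, and the 250 bases before each start were searched on both strands. The C/EBP-ATF response element was spelled TGATGNAA and the cyclic AMP response element, a site for ATF factors, TGACGTCA. The antioxidant response element, bound by NRF2, was spelled TGACNNNGC. The endoplasmic reticulum stress element, bound by ATF6, was searched as well. Shown are the windows of ASNS, at chr7:97872409-97872658 on the minus strand, CHAC1, at chr15:40953221-40953470 on the plus strand, and ATF3, at chr1:212565157-212565406 on the plus strand, which hold a C/EBP-ATF element. The window of PPP1R15A, at chr19:48872171-48872420 on the plus strand, is shown for its cyclic AMP response element. Capitals mark every match of the 4 motifs, and each sequence runs 5′ to 3′ along its gene.
ASNS: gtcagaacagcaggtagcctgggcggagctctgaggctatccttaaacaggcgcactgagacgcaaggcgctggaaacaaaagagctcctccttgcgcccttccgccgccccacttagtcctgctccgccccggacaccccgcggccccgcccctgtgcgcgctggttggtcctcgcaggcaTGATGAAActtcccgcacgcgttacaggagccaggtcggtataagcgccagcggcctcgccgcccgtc
CHAC1: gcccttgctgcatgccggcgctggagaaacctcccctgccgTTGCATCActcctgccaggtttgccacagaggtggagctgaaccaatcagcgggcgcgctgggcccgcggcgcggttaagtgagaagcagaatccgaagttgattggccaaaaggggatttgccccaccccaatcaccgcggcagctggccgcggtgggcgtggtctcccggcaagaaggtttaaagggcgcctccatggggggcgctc
ATF3: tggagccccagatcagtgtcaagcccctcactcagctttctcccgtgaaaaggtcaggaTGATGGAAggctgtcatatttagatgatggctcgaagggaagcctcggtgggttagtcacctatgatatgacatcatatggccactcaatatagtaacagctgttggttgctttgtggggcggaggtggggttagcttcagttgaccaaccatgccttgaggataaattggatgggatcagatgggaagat
PPP1R15A: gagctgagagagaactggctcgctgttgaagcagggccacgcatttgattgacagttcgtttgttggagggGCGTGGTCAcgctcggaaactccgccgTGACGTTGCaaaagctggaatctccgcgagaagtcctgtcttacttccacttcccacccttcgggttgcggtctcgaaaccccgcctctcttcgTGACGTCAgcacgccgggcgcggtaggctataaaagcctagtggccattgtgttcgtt

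The match in ASNS was TGATGAAA, from 68 to 61 bases before the start, and that in ATF3 was TGATGGAA, from 191 to 184 bases before it. ASNS and ATF3 have 2 windows each, and only the window shown held a match. CHAC1 held the element on the other strand, reading TTGCATCA from 209 to 202 bases before the start. In PPP1R15A the cyclic AMP response element lay from 58 to 51 bases before the start, and the other capitals are 2 matches of the antioxidant motif. SLC3A2 held 1 antioxidant match, TGACTCAGC, in 1 of its 3 windows, and no matches overlapped. The C/EBP-ATF spelling was present in 3 of the 9 genes, against 3.14% of 35116 windows and 3.89% of 27305 genes in the table, and 5 of 27 other listed ATF4 targets had it (CEBPG, FGF21, HERPUD1, JDP2 and SLC1A5). The cyclic AMP element was in 1 of the 9 genes and 0 of the 27 other targets, against 1.65% of windows and 2.03% of genes. The antioxidant motif was in 2 of the 9 and 6 of the 27, against 10.9% of windows and 13.2% of genes. The endoplasmic reticulum stress element was in 0 of the 9 and 0 of the 27, against 0.074% of windows and 0.0916% of genes. Genes with several starts have more bases searched, and a match describes letters only.

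Most of the 10 genes were higher at 12 h in both lines, with ATF3, SLC3A2 and PPP1R15A ahead and ATF4 itself the exception. A response is the log2 level at 12 h minus that at 0 h, on a scale where 1 is a 2-fold difference, after background correction with an offset of 50 and quantile normalization. All 10 genes were detected on all 4 arrays, meaning more than 2 SD above the blank spots' mean. Responses of at least 2-fold were measured for 3 of the 10 genes in LGP2 cells and 4 of 10 in 4KR cells. Of all genes, 0.444% and 0.411% were that much higher. At 1.5-fold the counts were 5 and 6 of 10, against 1.9% and 1.59% of all genes, and no member was 1.5-fold lower in either line, as 0.51% and 0.429% of all genes were. The median response of the 10 genes in LGP2 cells was 0.74, and 0.75 in 4KR cells, while that of all 15736 genes detected on all arrays was -0.01 in each line. Responses were above 0 in both lines for 9 of the 10 genes, against 33.4% of 16300 genes.

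The only test the design allows is an additive limma model with line and time as terms, in which the 2 lines stand in for replicates and 1 residual degree of freedom per gene is left. In it 9 of the 10 genes rose at 12 h, with Benjamini-Hochberg adjusted p under 0.05 over all genes. Of 17083 genes tested, 8.05% were called higher and 7.42% lower. The spread in this fit is the disagreement of the 2 lines, moderated by limma toward a value shared by all genes. That value carries 2.303 prior degrees of freedom, and each SE given is the moderated one. It is raised for genes whose lines nearly match and lowered for those whose lines differ most. Anything shared by both 12 h arrays counts as response. With plain subtraction of the blank level in place of the offset, the fit called 81 genes in all and 1 of the 10, PPP1R15A.

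**Figure D1:**
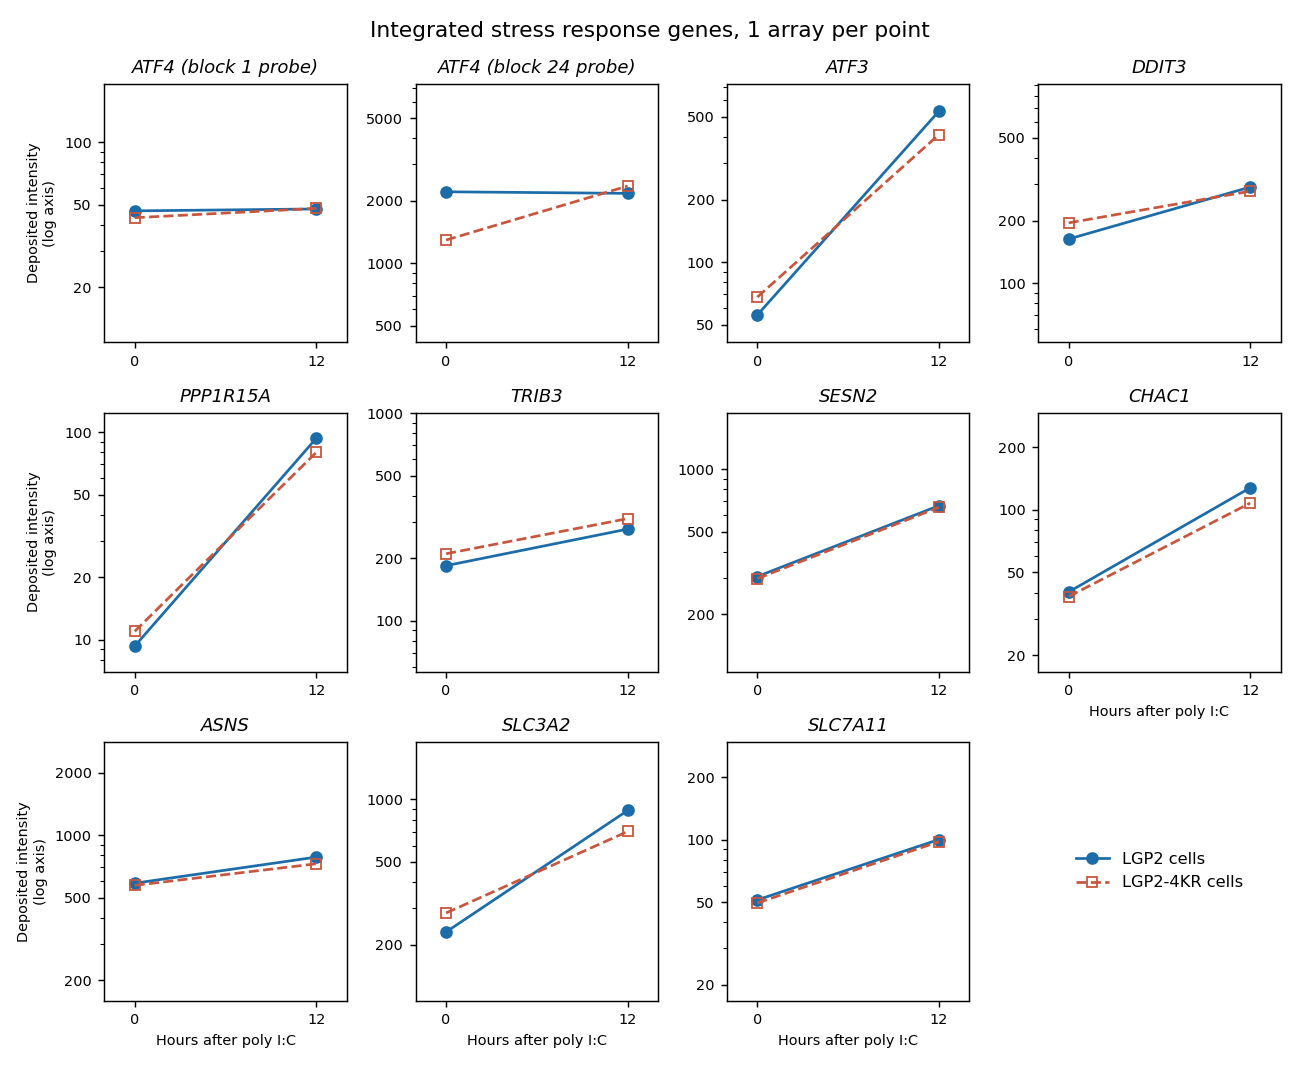
Deposited intensity (log axis, scanner signal scaled to a median of 25 on each array) of the 11 probes at 0 h and 12 h, 1 array per point, with LGP2 cells as filled circles and LGP2-4KR cells as open squares; each panel spans the same fold range. Both 12 h points lie above both 0 h points for every gene but ATF4, whose block 24 probe reads 1295 in unstimulated 4KR cells and between 2174 and 2358 on the other arrays.

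ATF4 encodes the factor that gives the pathway its name, and its 2 probes disagreed. The probe in print block 24 of the array had deposited intensities of 2212 at 0 h and 2174 at 12 h in LGP2 cells, and of 1295 and 2358 in 4KR cells. The low reading is that of unstimulated 4KR cells, and the other 3 arrays lie close together. The probe in block 1 read 46.6 and 47.6 in LGP2 cells and 43.2 and 47.9 in 4KR cells. Responses were 0.09 and 0.9959 for the block 24 probe, in LGP2 and 4KR cells, and -0.15 and -0.03 for the block 1 probe. The gap between the probes in 4KR cells, 1.02, was wider than for 99.6% of the 1978 genes with 2 detected probes. Around the block 24 probe, 89 detected probes within 5 rows and columns had a median response of -0.11 in the LGP2 line and 0.15 in the 4KR line, and subtracting the neighbours' shift gave 0.20 and 0.84. Averaged over both probes, ATF4 had a response of -0.03 in LGP2 cells and 0.49 in 4KR cells. The fitted rise of 0.23 ± 0.15 (moderated SE) did not pass (adjusted p = 0.393 in the limma fit).

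ATF3, a stress-induced repressor and activator of the same protein family, had the largest response of the 10 genes at the offset of 50, though PPP1R15A lay above it in the deposited table and, in 4KR cells, with plain subtraction. Its intensity at 0 h was 55.6 in the LGP2 line and 67.8 in the 4KR line, and 533 and 411 at 12 h. Both stimulated arrays lie far above both unstimulated ones, with the LGP2 line lower at 0 h and higher at 12 h. The responses were 2.58 and 2.15, or 5.97-fold and 4.42-fold, and the fit gave 2.36 ± 0.12 (moderated SE, limma adjusted p = 0.0225). The offset shrinks dim readings, and with plain subtraction and the same normalization the responses were 3.04 and 2.51. The deposited intensities differed 9.59-fold and 6.06-fold, in a table where the median response of all genes was 0.25 and 0.14 on the log2 scale.

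DDIT3 encodes CHOP, a partner of C/EBP factors that is linked to cell death under lasting stress. Its intensity was 163 and 195 at 0 h in LGP2 and 4KR cells, and 290 and 277 at 12 h. The times do not overlap, and in these intensities the line with the lower start ended slightly higher. After normalization 4KR cells were the higher line at both times, by 0.25 at 0 h and 0.06 at 12 h. Responses were 0.55 and 0.36, and the fitted rise was 0.45 ± 0.06 (SE, limma adjusted p = 0.0347).

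PPP1R15A encodes GADD34, the phosphatase subunit that removes the phosphate from eIF2 and so ends the response. It was the dimmest of the probes in unstimulated cells, with intensities of 9.34 in LGP2 and 11 in 4KR cells, and it read 93.6 and 80.1 at 12 h. The stimulated arrays were several times brighter in both lines. The deposited intensities differed 10.0-fold and 7.28-fold. The responses were 1.56 and 1.42, or 2.96-fold and 2.67-fold, with the offset of 50, and 3.02 and 2.70 on the log2 scale with plain subtraction and the same normalization. The fit gave 1.49 ± 0.05 (SE, limma adjusted p = 0.0143), the lowest adjusted p of the 10 genes.

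TRIB3, a pseudokinase that binds ATF4 and CHOP and restrains them, read 184 and 210 at 0 h and 276 and 310 at 12 h in LGP2 and 4KR cells. It was higher at 12 h in each line, and 4KR cells were the higher line at both times. Responses were 0.34 and 0.43, with a fitted rise of 0.38 ± 0.04 (SE, limma adjusted p = 0.0273).

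SESN2 encodes sestrin 2, a leucine sensor that holds back the growth kinase complex mTORC1. Its intensities were 304 and 297 at 0 h and 667 and 655 at 12 h. The lines were nearly level at each time, and the times stood well apart. Responses were 0.94 and 1.05 in LGP2 and 4KR cells, and the fitted rise was 0.9954 ± 0.04 (SE, limma adjusted p = 0.0193).

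CHAC1, an enzyme that breaks down glutathione, read 40.3 and 38.3 at 0 h and 128 and 108 at 12 h. It lay just under 2-fold in LGP2 cells, with a response of 0.9955 (1.99-fold), and at 0.92 in 4KR cells. The fit gave 0.96 ± 0.04 (SE, limma adjusted p = 0.0164). Its probe is in block 20, where the median response of all probes was 0.07 and 0.01 in LGP2 and 4KR cells, and with the neighbours' shift removed the responses were 0.91 and 0.92.

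The remaining 3 genes supply amino acids. ASNS, asparagine synthetase, read 587 and 573 at 0 h and 784 and 728 at 12 h, a modest difference of nearly equal size in the lines, with responses of 0.35 and 0.36. SLC3A2 encodes the heavy chain shared by several amino acid transporters, and its intensities were 230 and 284 at 0 h and 885 and 701 at 12 h. Like ATF3, it started lower and ended higher in LGP2 cells, with responses of 1.70 there and 1.21 in 4KR cells. SLC7A11 encodes the light chain of the cystine and glutamate exchanger, which pairs with SLC3A2, and it read 51.2 and 49.5 at 0 h and 100 and 97.6 at 12 h. Its responses were 0.51 and 0.59. All 3 rose in the limma fit, by 0.35 ± 0.03 for ASNS (adjusted p = 0.0244), 1.45 ± 0.14 for SLC3A2 (adjusted p = 0.0254) and 0.55 ± 0.04 for SLC7A11 (adjusted p = 0.0238), with moderated SE. The ASNS call was not made from the deposited table, in which 8 of the 10 genes passed. The SLC3A2 probe is in block 21, and with its neighbours' shift removed the responses were 1.63 and 1.23.

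**Figure D2:**
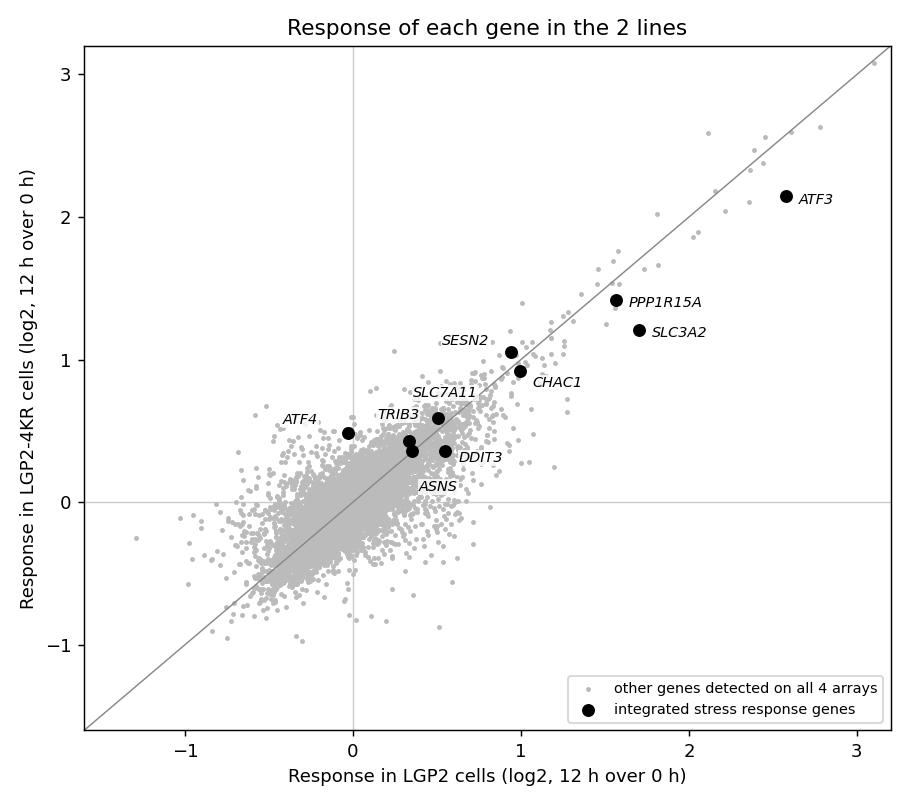
Response in LGP2 cells (horizontal, log2) against response in LGP2-4KR cells (vertical, log2) for all genes detected on all 4 arrays in grey and the integrated stress response genes in black, with the line of equal response; 8 genes beyond 3.2 on either axis are outside the plot. ATF3 and SLC3A2 sit below the line and ATF4, at -0.03 and 0.49, above it, while the other 7 genes lie near it.

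The size of the response was compared between the lines gene by gene. The 4KR response minus the LGP2 response was above 0 for 5 of the 10 genes and had a median of -0.03, against -0.0018 over all genes detected on all arrays. It ran from -0.49 for SLC3A2 and -0.43 for ATF3 to 0.52 for ATF4. These 3 lie outside the range from -0.30 to 0.30 that holds 95% of all genes, and the ATF4 value rests on the block 24 probe. None of the 10 genes differed by 1.5-fold, as 0.883% of all genes did. With 1 array per group these differences have no test. Under other settings SLC3A2 ran from -0.64 in the deposited table to -0.28 without normalization between arrays, and ATF3 from -0.66 to -0.24.

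The lines were also compared at each time. The log2 ratio of 4KR over LGP2 cells at 0 h ran from -0.36 for ATF4 to 0.30 for SLC3A2, with a median of 0.03. DDIT3 was at 0.25, ATF3 at 0.21 and TRIB3 at 0.19, while ASNS, SESN2, SLC7A11, CHAC1 and PPP1R15A lay between -0.04 and 0.06. Of the 10 genes 5 lay outside the range from -0.26 to 0.18 that holds 95% of all genes, ATF4 below it and SLC3A2, DDIT3, ATF3 and TRIB3 above. At 12 h the ratio ran from -0.23 for ATF3 to 0.29 for TRIB3, and these 2 lay outside the corresponding range from -0.21 to 0.19. No member passed 1.5-fold at either time, where 0.471% and 0.0939% of all genes did. The block 24 probe of ATF4 alone was at -0.65 at 0 h, past 1.5-fold, and its neighbours had a median of -0.22. In the additive fit the line term called none of the 10 genes and 0.0% of all 17083. At an unadjusted p under 0.05 it called 1 of the 10, TRIB3, at 0.24 ± 0.04 (moderated SE, limma unadjusted p = 0.00728, adjusted p = 0.873), and 832 genes in all, or 4.87%.

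**Figure D3:**
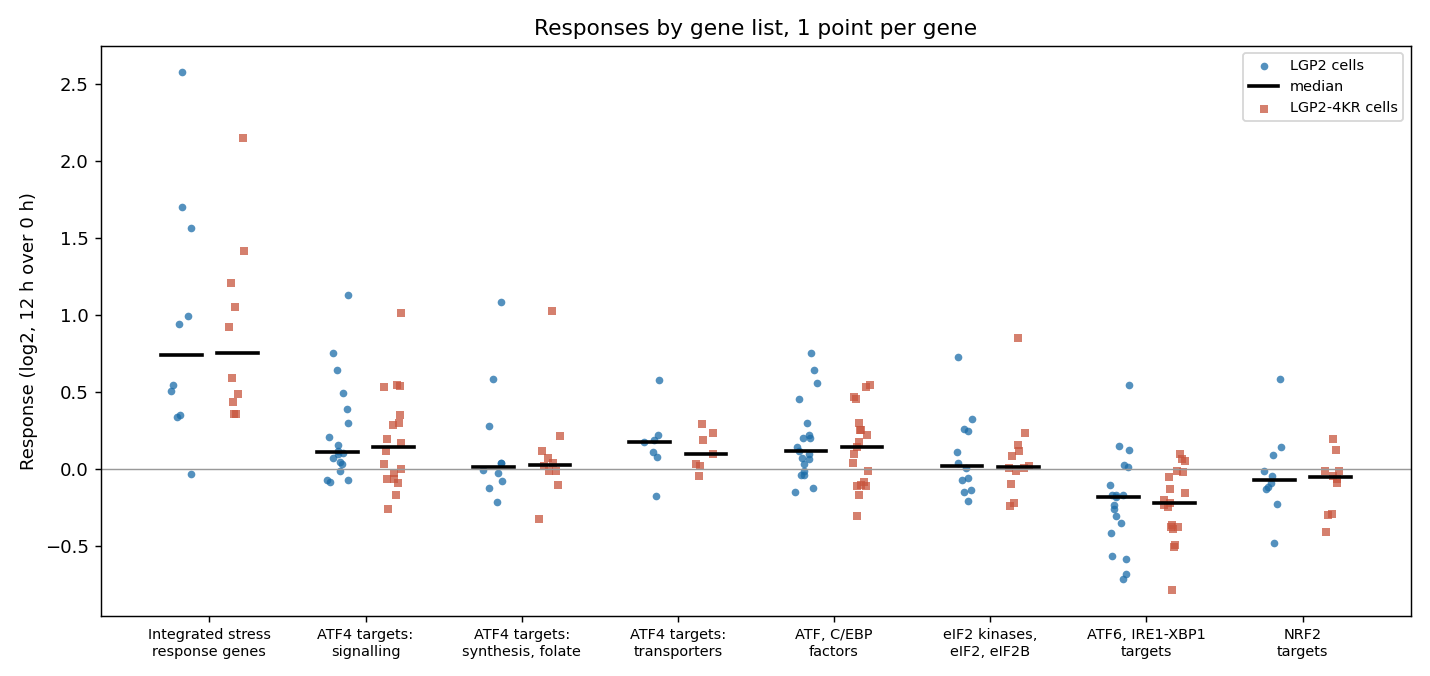
Response at 12 h (log2) of each detected gene in 8 lists, with LGP2 cells as circles, LGP2-4KR cells as squares and a black bar for the median. The integrated stress response genes have medians of 0.74 and 0.75, and the ATF6 and IRE1-XBP1 targets have medians of -0.18 and -0.22.

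Upstream of ATF4, the list of eIF2 kinases and of subunits of eIF2 and its exchange factor eIF2B had 2 of 12 genes that rose and 1 that fell in the additive fit. Of all genes, 8.05% rose and 7.42% fell. EIF2AK2, the gene of PKR, read 115 and 97.4 at 0 h and 244 and 216 at 12 h. Its responses were 0.73 and 0.85 (limma adjusted p = 0.0227). The other kinase genes did not pass, with EIF2AK1 at 0.11 and 0.0048, EIF2AK3, the gene of PERK, at 0.04 and 0.08, and EIF2AK4, the gene of GCN2, at -0.15 and -0.24. Of the eIF2 subunits, EIF2S2 rose, by 0.25 and 0.23, and EIF2S3 fell, at -0.21 and -0.22, although the latter was at 0.17 in 4KR cells without normalization between arrays. In the deposited table EIF2S2 was at 0.21 and 0.07, below the all-gene medians of 0.25 and 0.14 there. The list's median was 0.02 and 0.01.

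Among 19 other genes of the ATF and C/EBP families and related factors, 7 rose and 0 fell, against 8.05% and 7.42% of all genes. CEBPB, a factor of inflammation and stress, had responses of 0.75 and 0.53 (limma adjusted p = 0.0273), and CEBPG, which pairs with ATF4, had 0.64 and 0.54 (adjusted p = 0.0238). XBP1, the factor of the IRE1 branch, was at 0.56 and 0.45, and NFIL3, a repressor of the same fold, at 0.46 and 0.47. CEBPA, CEBPD and JDP2 rose by less, with responses between 0.20 and 0.30. ATF5 had responses of 0.12 and -0.11 and ATF6 of 0.03 and 0.04.

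Other known ATF4 targets moved unevenly, where 8.05% of all genes rose and 7.42% fell. Of 10 genes of amino acid synthesis and folate metabolism 1 rose, CTH, which makes cysteine from cystathionine, with intensities of 109 and 96.7 at 0 h and 302 and 243 at 12 h. Its responses were 1.08 and 1.02 (limma adjusted p = 0.0139). The serine synthesis genes PHGDH and PSAT1 had responses of 0.04 and 0.02 and of 0.04 and 0.04, and PSPH was at -0.08 and -0.01. SHMT2 and MTHFD2, the mitochondrial folate enzymes, had 0.59 and 0.21, and 0.28 and 0.12, and did not pass. The SHMT2 probe is in block 20, where the median response of all probes was 0.07 and 0.01 in LGP2 and 4KR cells. The medians of this list were 0.01 and 0.03.

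Of 7 amino acid transporter genes 1 rose, SLC38A2, by 0.18 and 0.19 (limma adjusted p = 0.0475). SLC1A5, a glutamine transporter, was at 0.57 and 0.24 (adjusted p = 0.0881), and SLC7A5, which also pairs with SLC3A2, at 0.11 and -0.04. In the list of signalling and survival targets 7 of 18 genes rose and 0 fell. DDIT4, an inhibitor of mTORC1, read 194 and 198 at 0 h and 511 and 440 at 12 h, with responses of 1.13 and 1.01 (limma adjusted p = 0.0183). STC2 and VEGFA, which encode secreted proteins, had responses of 0.49 and 0.54, and of 0.39 and 0.35. NUPR1, a small stress protein, rose by 0.21 and 0.17, and the list's others that rose were CEBPB, CEBPG and JDP2. HERPUD1 and GDF15 did not pass, at -0.08 and -0.06, and at 0.07 and -0.03. Across these 3 lists of targets, 9 of 35 genes rose and none fell, against 8.05% and 7.42% of all genes.

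Of 15 paralogs of the 10 genes 2 rose and 1 fell, against 8.05% and 7.42% of all genes, and the other 12 did not pass. PPP1R15B, the constitutive counterpart of PPP1R15A, rose by 0.65 and 0.42 (limma adjusted p = 0.0336), with intensities of 82.2 and 80.7 at 0 h and 170 and 130 at 12 h, and JDP2, a relative of ATF3, was the other. SLC7A9 fell, at -0.38 and -0.42, and was at 0.10 in 4KR cells without normalization between arrays. TRIB1 and TRIB2 had 0.34 and 0.15, and -0.0045 and 0.06, and SESN1 and SESN3 were at -0.29 and -0.04 and at -0.02 and -0.09.

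Targets of ATF6 and of IRE1 and XBP1, the other branches of the unfolded protein response, lay mostly on the lower side. Of 19 genes 9 fell in the limma fit and 0 rose, against 7.42% and 8.05% of all genes. The medians were -0.18 in LGP2 cells and -0.22 in 4KR cells. Below 0 in both lines were 14 of the 19, and 3 were above 0 in both. These 3 were DNAJB9, at 0.13 and 0.10, DERL2, at 0.54 and 0.06, and SYVN1, at 0.01 and 0.05. EDEM1, at 0.15 and -0.02, and WFS1, at 0.02 and -0.01, were mixed. PDIA4, a disulfide isomerase of the endoplasmic reticulum, read 450 and 430 at 0 h and 291 and 244 at 12 h, and its responses were -0.72 and -0.79 (adjusted p = 0.0208). CRELD2 was at -0.57 and -0.51, HSP90B1 at -0.58 and -0.38 and PDIA6 at -0.42 and -0.50. HSPA5, the chaperone BiP, was at -0.23 and -0.38 (adjusted p = 0.0464). Without normalization between arrays the list's medians were 0.02 and 0.17, below those of all genes at 0.13 and 0.28. There 6 of the 9 were above 0 in 4KR cells, CRELD2 at 0.03, HSPA5 at 0.05, HYOU1 at 0.09, DNAJB11 at 0.16, SDF2L1 at 0.24 and SEC61B at 0.29, and 2 of the 9, HSPA5 and SEC61B, in LGP2 cells. Of 10 NRF2 targets, which share SLC7A11 with the ATF4 pathway, 0 rose and 2 fell, against 8.05% and 7.42% of all genes. The 2 were ME1, at -0.48 and -0.41, and NQO1, at -0.23 and -0.30. GCLM was higher at 12 h, at 0.59 and 0.19, but did not pass, and HMOX1 was at 0.14 and -0.29. The GCLM probe is in block 20, where the median response of all probes was 0.07 and 0.01 in LGP2 and 4KR cells. ME1 was at 0.15 in 4KR cells without normalization between arrays.

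**Figure D4:**
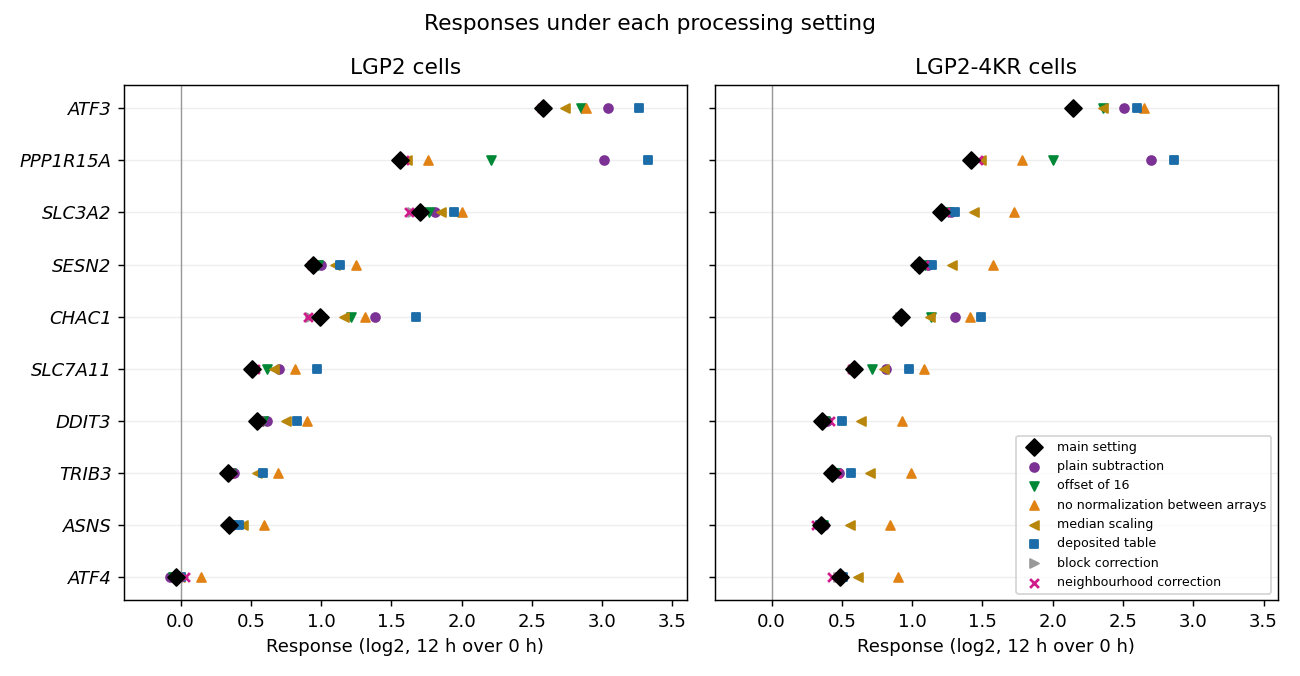
Response at 12 h (log2) of each gene in LGP2 cells (left) and LGP2-4KR cells (right) under the main setting (black diamond) and 7 other settings, 1 symbol per setting. PPP1R15A moves most, from 1.56 to 3.32 in LGP2 cells, and ATF4 in LGP2 cells stays near 0, from -0.08 to 0.15.

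The order of the genes by response moved with the setting, and PPP1R15A lay above ATF3 in both lines in the deposited table, and in 4KR cells with plain subtraction, at 2.70 against 2.51. In LGP2 cells PPP1R15A ran from 1.56 to 3.32, the upper value from the deposited table, and CHAC1 from 0.91 to 1.67. ATF3 stayed between 2.57 and 3.26 in LGP2 cells and between 2.14 and 2.65 in 4KR cells. The responses of ASNS and TRIB3 ran from 0.34 to 0.59 and from 0.34 to 0.69 in LGP2 cells, and from 0.31 to 0.84 and from 0.43 to 0.99 in 4KR cells. The highest values of these 2 genes were those without normalization between arrays, and there the all-gene median was at 0.13 in LGP2 and 0.28 in 4KR cells. In the deposited table that median was 0.25 and 0.14. ATF4 in LGP2 cells ran from -0.08 to 0.15 and had no settled direction.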

How the data were processed

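Per the labels' protocols, aRNA made from total RNA carried Cy5 on amino allyl groups and was put on single-colour arrays. The authors deposited a scanner table per array, whose intensity per the file headers is the spot median at 3 gains joined by least-squares fits, and a series table of intensity per probe. Set against the scanner values, the series table is the spot median less about the mean of the blank spots, scaled to a median of 25 (largest residual 0.053). Further steps behind it are not stated. The scanner column headed as background followed the spots (correlation of logarithms from 0.990 to 0.997), so the mean of 384 blank spots served instead.

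Scanner values went through limma 3.58.1 (R 4.3.3), by normexp with an offset of 50, then quantile normalized, and log2 taken. Between 83.2% and 89.2% of 24460 gene probes were detected per array. The platform annotation named 21707 probes, 21675 matched a RefSeq gene identifier, 4 rejected probes were left out, and probes of a gene were averaged (Python 3.11.15 for the remaining steps). The additive fit took genes detected on at least 1 array. The members, lists and tests were chosen with earlier results of these data known. The 10 genes were all named, and from each of 11 lists the 4 with the largest absolute mean response and those that passed the fit could be named; some others are given because their role bears on the pathway, chosen after their values were seen. No genome build is named in the files. Responses were recomputed with plain subtraction, an offset of 16, no or median scaling between arrays, the deposited table, block and neighbourhood correction, the brightest probe and other detection filters. The number of arrays limits the precision.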

Additional observations from a re-analysis of the deposited data

Results flagged for a closer look

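ATF4, averaged over its 2 probes, was the only one of the 10 genes whose responses took opposite signs, -0.0324 in LGP2 cells and 0.4853 in 4KR cells. Neither probe alone changed sign, with 0.09 and 0.9959 for the block 24 probe and -0.15 and -0.03 for the block 1 probe. The averaged LGP2 value was above 0 in several other settings, at 0.15 without normalization between arrays. The difference between the lines was not tested, since each group has 1 array. It came from the block 24 probe, which read 1295 in unstimulated 4KR cells and 2212, 2174 and 2358 on the other arrays, and it was 0.40 with the neighbourhood correction, chosen after seeing the data. The part of array position in it was not tested further.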

How the results depend on the processing

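The additive fit pairs the 2 times within each line. Beyond this, no paired analysis was possible because each group has 1 array, and leaving out an array leaves no residual degrees of freedom. Of 200 member responses under alternatives 195 were above 0, the 5 below 0 all being ATF4, and 0 called responses changed sign. Many of the 200 repeat the main values by construction, some of the 5 below 0 among them. The detection filters leave a response as it was, and the brightest probe does so for every member but ATF4. The count past 2-fold in LGP2 cells was 3 and became 5 without normalization between arrays, with median scaling and in the deposited table; no such count in 4KR cells, 4 to 6, moved by over 1.5 times. The count past 1.5-fold in the difference of the responses was 0 and became 1 without normalization between arrays, 1 with median scaling, 1 with the brightest probe and 2 in the deposited table. With the brightest probe 1 member, ATF4, passed 1.5-fold between the unstimulated lines, where 0 did otherwise. The additive fit called 9 members, 1 with plain subtraction (81 genes in all, against 2642), 8 in the deposited table, 10 without normalization between arrays and with median scaling, and 9 in the other settings, including those of eBayes and detection. The cause was not tested. Genes called in all ran from 81 to 7366, with 6948 without normalization between arrays. Low signal over background limits PPP1R15A most.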

Other observations

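Genes outside the list with the 4-array pattern nearest to the mean of the 10 genes were ranked by Euclidean distance of centred log2 levels, over 4 arrays and 15726 genes. The 5 nearest were OTUD1, a deubiquitinase, with responses of 0.91 and 0.90 in LGP2 and 4KR cells, RASSF1 at 0.89 and 0.88, CCNL1 at 0.89 and 0.94, ZNF689 at 0.95 and 0.85, and SP110, an interferon-induced nuclear body protein, at 0.88 and 0.86. The mean responses of the 10 genes were 0.95 and 0.90. Their distances ran from 0.031 for OTUD1 to 0.054 for SP110.

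Markers of the line and of other cells were checked on the same arrays. Of 10 markers of HEK293 cells 7 were on the array and all 7 were detected, among them the neurofilament gene NEFL with intensities of 313, 321, 258 and 259 in unstimulated LGP2, unstimulated 4KR, stimulated LGP2 and stimulated 4KR cells. NEFL fell, with responses of -0.40 and -0.35 (limma adjusted p = 0.0244), but was at 0.21 in 4KR cells without normalization between arrays. The leukocyte marker PTPRC and the fibroblast marker COL1A2 were not well above background on any array. Of the other markers, 4 of leukocytes and 5 of fibroblasts were detected on at least 1 array, 0 passed the limma fit, and their medians lay between -0.04 and -0.0009. The HEK293 marker NEFH was dimmer, at 8.69 to 11.2, than the fibroblast marker PDGFRB, at 25.6 to 29.3. It was also dimmer than the leukocyte marker CD14, at 20.5 to 23.1, so the lists overlapped in level.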
